A study of Mus musculus with 26 samples.

Results

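Cadherins are the adhesion molecules that hold cells of a tissue together, and 33 of their genes were followed here in motor neuron spheroids across 5 treatments. They comprise every protein-coding gene whose symbol is Cdh or Pcdh followed by digits alone, without Cdh15, out of 21606 protein-coding genes and 56941 genes in all. By structure they were 4 type I cadherins, 13 type II cadherins, the GPI-anchored Cdh13, the 7D cadherins Cdh16 and Cdh17, the hair cell tip link pair Cdh23 and Pcdh15, 3 delta-1 protocadherins, 5 delta-2 protocadherins, and Cdh26, Pcdh12 and Pcdh20. The clustered protocadherins, whose symbols carry letters, are not among them.

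Classical cadherins (types I and II) bind their like on a neighbouring cell through calcium-dependent extracellular repeats, and their cytoplasmic tails join the actin cytoskeleton through catenins. In the spinal cord, N-cadherin (Cdh2) is broadly present in neural cells, while combinations of type II cadherins differ between motor pools and take part in sorting motor neurons into columns and pools. Nonclustered delta protocadherins adhere more weakly; those of the delta-2 group recruit the WAVE actin-regulating complex and act in axon growth and guidance.

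HBG3 mouse embryonic stem cells, in which the HB9 (Mnx1) promoter of motor neurons drives GFP, were the source of all spheroids. The line's genotype is labelled only as heterozygous blastocysts, and its cells were expanded on a feeder layer. In every group the cells were differentiated with retinoic acid and purmorphamine, received CNTF and GDNF from day 5, and were plated as spheroids on a fibrin platform on about day 8. The 5 groups, with 26 libraries in all, were biochemical controls (6 libraries), spheroids given muscle-conditioned medium and labelled low intensity (6) or high intensity (6), spheroids on a magnetic silicone array that was never actuated (static array, 4), and spheroids on such an array actuated at 4 Hz for 30 min each day (actuated array, 4). The design text describes medium from optically stimulated muscle and medium from unstimulated muscle under other sample names, so the intensity groups are named here by intensity only. A single cell line stands behind all groups, and nothing states that libraries of a group came from separate differentiations, so p-values measure the spread between these libraries, which may be technical. The question the design poses for these genes is whether either kind of stimulus, biochemical or mechanical, goes with a different cadherin repertoire.

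Of the 26 libraries, 21 held at least 1000000 counts on protein-coding genes and were used: 5 controls (replicates 1, 2, 3, 5 and 6), 5 of low intensity (1 to 5), 4 of high intensity (1, 2, 3 and 6), 3 of the static array (1, 2 and 4) and 4 of the actuated array. Values below are listed in that order. Their totals ran from 1551334 to 3971348 counts in the control and intensity groups and from 7269276 to 13162635 counts in the array groups, so depth moves with the static array against control comparison. Of the 7 markers of motor neurons, Mnx1 was at 2.23 to 3.93 TPM in the controls. Isl1, Chat, Slc18a3 and Slc5a7 were above 0 in every library used. Lhx3 was at 0.116 to 0.647 TPM in the controls and 0 in high-intensity replicate 3, and Isl2 was 0 in control replicates 2, 3 and 5. In the controls the motor neuron list summed to 31.6 to 56.8 TPM, the neuron list to 1206 to 2384 TPM and the astrocyte list to 356 to 773 TPM. TPM, the authors' abundance scaled to transcript length and library total, serves below for levels between genes. CPM here means counts per 1000000 after TMM scaling and serves for 1 gene between libraries. The 5 groups were fitted together with edgeR's quasi-likelihood test, with Benjamini-Hochberg adjustment over the 14730 genes that passed the low-count filter, and a gene was called at an adjusted p under 0.05. 29 of the 33 genes passed; Cdh16, Cdh17, Cdh26 and Pcdh12 did not.

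The repertoire was led by neural members. In the controls the highest level per length was that of Pcdh10, a delta-2 protocadherin of developing neurons, at 60.1 ± 16.6 TPM (SD, n = 5), followed by Cdh2 at 51.5 ± 10.7 TPM, Pcdh9 at 46.9 ± 11.2 TPM, Cdh13 at 38.8 ± 19.8 TPM and Pcdh7 at 38.7 ± 12.2 TPM. Each of these 5 means lay within 1 SD of the next in the order. After a step down came Cdh11 at 17.1 ± 8.59 TPM, Pcdh17 at 15.1 ± 4.00 TPM, Pcdh1 at 14.7 ± 3.86 TPM, Cdh6 at 13.8 ± 5.00 TPM, Cdh7 at 12.2 ± 4.16 TPM and Cdh10 at 10.999 ± 3.80 TPM, again without gaps beyond their spread. At the foot of the order, Cdh1 was at 0.159 ± 0.145 TPM, Cdh17 at 0.122 ± 0.168 TPM, and Cdh26 was listed at 0 in all 5 controls. Pcdh10 and Cdh2 held the first pair of ranks in all 5 groups, Cdh2 being first at low intensity with 94.8 ± 17.8 TPM against 84.8 ± 12.5 TPM.

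**Figure D1:**
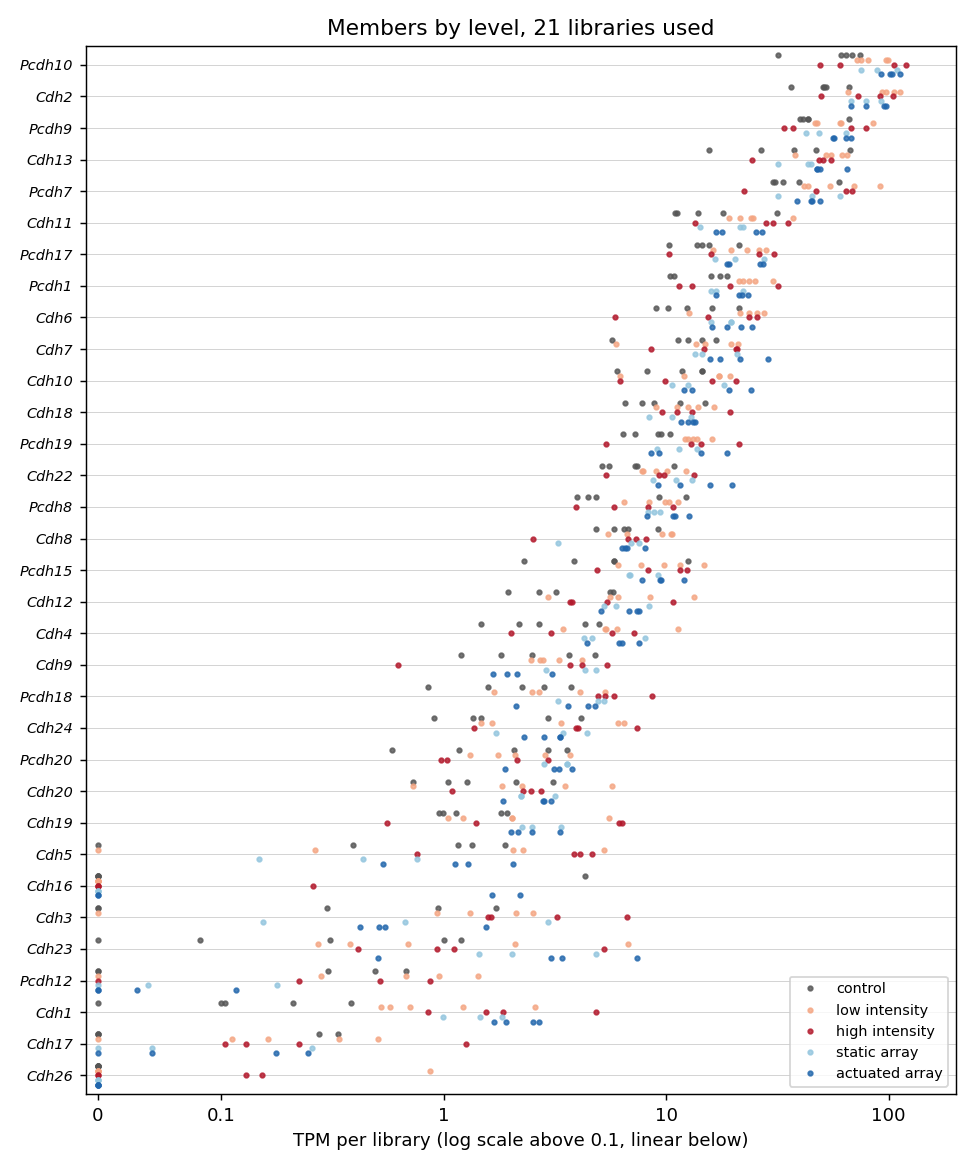
TPM of the 33 genes (rows, ordered by their mean in the controls) in each of the 21 libraries used, 1 point a library, coloured by group; the axis is logarithmic above 0.1 TPM and linear below. Pcdh10 and Cdh2 lead in every group, and the control points of Cdh1 sit at 0 to 0.382 TPM, below those of the other groups. As CPM, the scale used for differences between groups, the Cdh1 controls overlap low intensity.

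By class, the delta-1 protocadherins held 26.4% ± 4.36 (SD, n = 5) of the summed TPM of the 33 genes in the controls, the type II cadherins 23.3% ± 2.99, the delta-2 protocadherins 23.9% ± 3.88, and the type I cadherins 14.3% ± 1.16. On the actuated array the same shares were 22.1% ± 1.20, 22.8% ± 1.63, 26.6% ± 1.06 and 16.3% ± 1.01 (n = 4). The tip link genes held 1.70% ± 0.879 in the controls and Cdh13 alone 9.49% ± 3.13. The summed TPM itself was 388 ± 81.9 in the controls, 581 ± 73.0 at low intensity and 529 ± 186 at high intensity. It was 509 ± 84.6 on the static and 575 ± 76.7 on the actuated array. Single controls ran from 270 to 480. They overlapped low intensity (from 452), high intensity (from 305) and the static array (from 458), but not the actuated array (from 501). TPM was lower in the controls for most members, whereas TMM-scaled CPM, which sets the bulk of the genes level between libraries, was not. Differences between groups are therefore given on the CPM scale, and the part of composition in the TPM difference was not tested.

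Promoters of 21 of the 33 genes had an entry in the RefSeq table (GRCm38.p6), each as 250 bases before and 50 bases after the annotated start, among 27025 genes with such an entry. Cdh1, Cdh2, Cdh3, Cdh4, Cdh5, Cdh11, Cdh13, Cdh16, Cdh17, Cdh19, Pcdh1 and Pcdh12 had none. The 21 held a median of 14 CG dinucleotides, against 7 over all genes, and a median GC content of 59.3%, against 52.7%. All 21 are protein-coding, whereas the 27025 were not restricted to protein-coding genes. The part of that in these differences, and in the shares of searched letters below, was not tested. The promoters of Pcdh10 (24 CG), the gene of highest level, of Cdh10 (2 CG), the CG-poorest of the 21, and of Cdh26 (4 CG), which was listed at 0 in the controls, are shown with every CG in capitals. Positions are chr3:45378148-45378447 for Pcdh10, chr15:18820079-18820378 for Cdh10 and chr2:178430265-178430564 for Cdh26, all on the plus strand.
Pcdh10: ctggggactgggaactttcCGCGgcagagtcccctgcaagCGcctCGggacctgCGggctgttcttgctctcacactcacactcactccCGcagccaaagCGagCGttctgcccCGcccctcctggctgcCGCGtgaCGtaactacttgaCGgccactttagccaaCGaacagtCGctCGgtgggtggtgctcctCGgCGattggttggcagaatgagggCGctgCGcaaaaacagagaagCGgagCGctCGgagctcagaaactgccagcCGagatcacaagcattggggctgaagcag
Cdh10: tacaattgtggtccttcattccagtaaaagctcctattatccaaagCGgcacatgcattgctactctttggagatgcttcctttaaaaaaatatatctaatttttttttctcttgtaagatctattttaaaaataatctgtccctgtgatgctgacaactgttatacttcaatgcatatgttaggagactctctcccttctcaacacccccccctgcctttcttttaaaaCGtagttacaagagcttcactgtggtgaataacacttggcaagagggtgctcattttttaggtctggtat
Cdh26: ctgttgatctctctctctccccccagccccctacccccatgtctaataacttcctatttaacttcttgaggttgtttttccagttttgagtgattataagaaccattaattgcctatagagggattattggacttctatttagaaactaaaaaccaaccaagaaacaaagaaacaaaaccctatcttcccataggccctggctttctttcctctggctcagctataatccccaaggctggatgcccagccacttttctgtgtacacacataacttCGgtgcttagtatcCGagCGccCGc
Cdh10 stood at 10.999 ± 3.80 TPM in the controls with the fewest CG dinucleotides of the 21, and Cdh26 with 4 was not detected there. CG number and level did not run together in this chosen pair. Of the 21, those of highest control level (Pcdh10, Pcdh9, Pcdh7 and Pcdh17) had 24, 18, 11 and 26 CG. Those of lowest level (Pcdh20, Cdh20, Cdh23 and Cdh26) had 4, 18, 5 and 4, and a relation over the 21 was not tested. Each 300-base window was also searched on both strands for CAGGTG, which on the other strand reads as CACCTG, letters bound by repressors of the Snail and ZEB families. They occurred in 3 of the 21 windows, those of Cdh7, Pcdh7 and Pcdh15 (14.3%, against 20.0% of all promoters). TATAAA occurred in 2 windows, of Pcdh8 and Pcdh15 (9.52% against 14.2%), and TAATTA, a core read by homeodomain factors, in 0 (against 5.31%). The Cdh7 window, at chr1:109982650-109982949 on the plus strand and the first of its listed starts, is shown because Cdh7 had the smallest p of the members at low intensity, with the searched letters in capitals.
Cdh7: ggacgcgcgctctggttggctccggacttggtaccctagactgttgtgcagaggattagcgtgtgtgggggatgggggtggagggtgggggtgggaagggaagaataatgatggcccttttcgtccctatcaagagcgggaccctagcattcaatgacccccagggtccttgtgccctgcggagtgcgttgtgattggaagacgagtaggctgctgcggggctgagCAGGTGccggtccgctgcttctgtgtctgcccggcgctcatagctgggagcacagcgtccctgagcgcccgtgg

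Among type I cadherins, Cdh2 (N-cadherin) dominated and varied least. It was at 305, 327, 278, 305 and 266 CPM in the controls, 367, 308, 330.1, 322 and 262 CPM at low intensity and 297, 303, 242 and 316 CPM at high intensity. On the arrays it was at 316, 292 and 309.8 CPM on the static array and 303, 299.8, 293 and 299 CPM on the actuated array. These ranges overlapped in every comparison made. The pooled SD within groups, taken here and below on log2 of CPM plus 1, was 0.131, the lowest of the 29 tested members. The log2 difference was -0.03 for high intensity against control, with an interval of 2 SE either way of -0.24 to 0.17, 0.10 (-0.09 to 0.29) for low intensity against control, and -0.03 (-0.26 to 0.20) for the actuated against the static array. Cdh2 made up 93.3% of the type I TPM in the controls and 89.1% at high intensity. R-cadherin, Cdh4, was at 11.9 to 38.1 CPM in the controls and 14.7 to 30.6 CPM at high intensity, with a log2 difference of -0.02 (interval -0.56 to 0.52).

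Cdh1 (E-cadherin, the cadherin of epithelia and of embryonic stem cells) was the only 1 of the 29 that edgeR called in any comparison in the fit of the 21 libraries. It was at 1.73, 0, 0.385, 0.468 and 2.03 CPM in the controls, from 6, 0, 1, 1 and 7 counts, and at 16.1, 7.70, 7.77 and 2.48 CPM at high intensity, from 64, 19, 19 and 9 counts. The lowest high-intensity library lay above the highest control, and replicate 1 stood well above the other three. At low intensity it was at 4.15, 2.25, 1.70, 8.85 and 2.38 CPM, which overlapped the controls, and on the arrays at 3.39, 5.88 and 7.27 CPM on the static array and 5.87, 7.98, 7.28 and 10.3 CPM on the actuated array. Cdh1 rose at high intensity by 3.09 on the log2 scale (SE 0.66, adjusted p = 0.0420 with edgeR's quasi-likelihood test), and in the mean of both intensity groups against control by 2.49 (SE 0.61, adjusted p = 0.0398). The log2 difference of low intensity from control, 1.89 (SE 0.66), was not called (edgeR adjusted p = 0.159), nor was that of high from low intensity, 1.20 (SE 0.60, edgeR adjusted p = 0.651). Cdh1 stayed at a low level throughout, with 2.27 ± 1.76 TPM at high intensity (n = 4) beside 79.9 ± 24.0 TPM for Cdh2. In these bulk libraries, fewer cells that carry a transcript and less of it in each cell cannot be told apart.

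The Cdh1 call rests on few counts. The gene passed the low-count filter through the groups other than the controls, and it was filtered out when only control and high-intensity libraries were fitted. With all 26 libraries the edgeR adjusted p for high intensity was 0.106, and over the other settings tried, DESeq2 included, it ran from 0.000213 to 0.106; leaving out 1 library at a time it ran from 0.0147 to 0.124 and the call held in 10 of 21. For the mean of both intensity groups those ranges were 0.00222 to 0.171 and 0.0184 to 0.0818, with the call held in 9 of 21 by edgeR's quasi-likelihood test. The libraries whose omission ended the high-intensity call were control replicates 2, 3 and 5, high-intensity replicates 1, 2 and 3, static array replicates 1 and 2 and actuated array replicates 1, 2 and 4. The call for the mean ended without the same controls, low-intensity replicates 1 and 2, high-intensity replicates 1 and 3, and the same array libraries. Of the epithelial marker list (Epcam, Krt8, Krt18, Krt19 and Cldn6), 4 of 5 were detected in at least 1 control, and Cldn6 was listed at 0 in all of them. The summed CPM of that list was 12.3 to 192 in the controls, 20.2 to 176 at low intensity and 49.5 to 202 at high intensity. It was 20.8 to 121 on the static and 40.9 to 128 on the actuated array. Its values overlapped between all groups and none of its members was called at high intensity; its part in the Cdh1 result was not tested. The pluripotent list summed to 2.69 to 17.3 CPM in the controls and 4.09 to 18.7 CPM at high intensity, which overlapped. High-intensity replicate 1, which had the highest Cdh1 of the libraries used, also had the highest epithelial (193 TPM) and pluripotent (15.9 TPM) sums of them. As CPM the pluripotent sums reached nearly the same height on the arrays, with 18.5 on the static and 18.7 on the actuated array. Without it the log2 difference of Cdh1 was 2.57 (edgeR adjusted p = 0.117); the part of the pluripotent list was not tested either.

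Cdh3 (P-cadherin) is the protein-coding gene next to Cdh1 in the GRCm38.p6 annotation and was looked at for that reason after its values were seen. It was at 0, 0, 1.54, 7.95 and 4.93 CPM in the controls, 4.43, 7.87, 6.81, 3.16 and 0 CPM at low intensity and 21.9, 13.4, 7.77 and 4.68 CPM at high intensity. Array libraries gave 2.26, 0.670 and 11.6 CPM on the static array and 1.57, 4.88, 2.32 and 1.59 CPM on the actuated array. The 4 high-intensity libraries overlapped the controls, replicates 1 and 2 being the highest of all. The log2 difference of high intensity from control was 2.09 (SE 0.93) and was not called (edgeR adjusted p = 0.267).

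**Figure D2:**
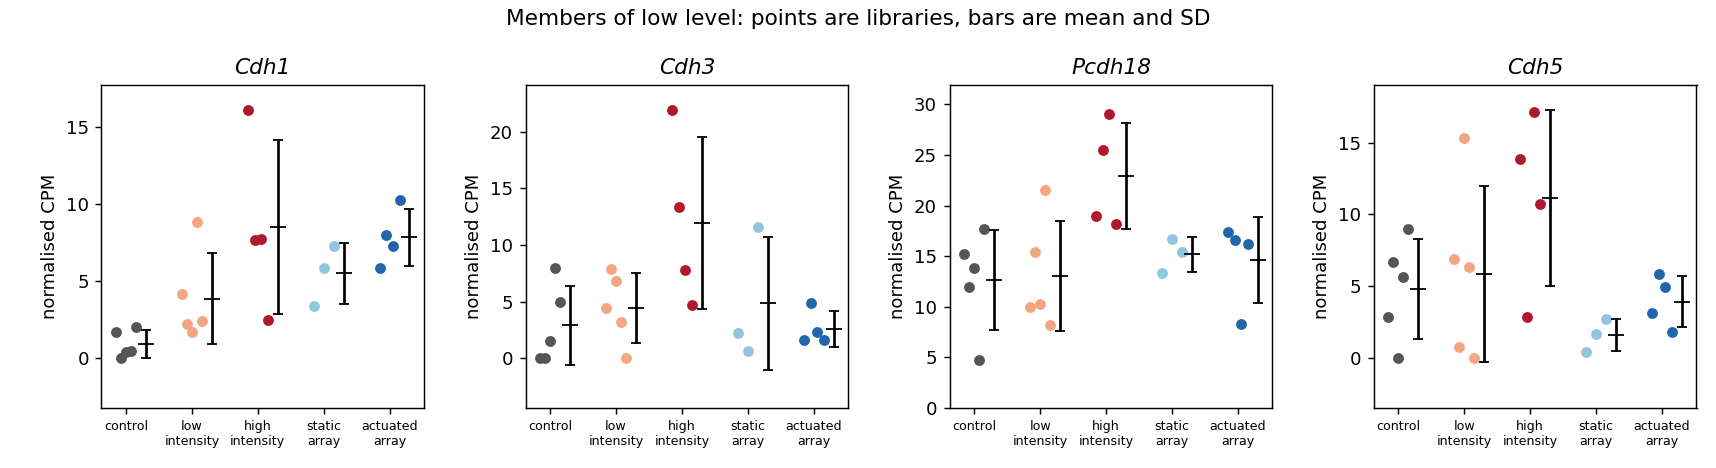
Normalised CPM of Cdh1, Cdh3, Pcdh18 and Cdh5 in the 21 libraries used, 1 point a library, with the mean and SD of each group (5 controls, 5 low intensity, 4 high intensity, 3 static array, 4 actuated array). The 4 high-intensity points of Cdh1 (2.48 to 16.1) and of Pcdh18 (18.2 to 29.02) lie above every control point, while those of Cdh3 and Cdh5 overlap the controls.

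The type II cadherins that differ between spinal motor pools were all present, and none was called by edgeR in the fit of the 21 libraries. Cdh6 was at 158, 108, 159.6, 111 and 128 CPM in the controls, 111, 110.1, 123, 118 and 83.0 CPM at low intensity and 108, 122, 55.2 and 129 CPM at high intensity. Its array values were 124, 137 and 107 CPM on the static array and 142, 131, 132 and 116 CPM on the actuated array. High-intensity replicate 3 and low-intensity replicate 5 were the lowest, and all groups compared overlapped. The log2 difference of the mean of both intensity groups from control was -0.32 (SE 0.15, edgeR adjusted p = 0.249).

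Cdh7, a cadherin of neural crest and of subsets of spinal neurons, was at 43.1, 70.4, 55.8, 67.8 and 60.0 CPM in the controls, 37.9, 41.2, 39.2, 51.8 and 20.7 CPM at low intensity and 43.9, 51.5, 35.2 and 53.4 CPM at high intensity. Its array values were 55.9, 45.4 and 42.5 CPM on the static array and 66.0, 47.5, 57.9 and 56.3 CPM on the actuated array. Of the 5 low-intensity libraries 4 lay below every control, and replicate 4 fell inside the control range, whose lowest value came from control replicate 1. The log2 difference of low intensity from control was -0.65 (SE 0.19), which edgeR did not call (adjusted p = 0.0910) and DESeq2's Wald test did. For high intensity against control it was -0.36 (interval -0.76 to 0.03).

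Cdh8, which marks interneuron and motor pool subsets, was at 40.5, 40.3, 32.3, 19.7 and 21.2 CPM in the controls, 24.6, 16.1, 23.5, 27.8 and 19.4 CPM at low intensity and 21.9, 24.3, 7.77 and 15.2 CPM at high intensity. Array values were 19.3, 23.6 and 12.3 CPM on the static array and 15.5, 17.7, 20.1 and 18.4 CPM on the actuated array. Controls 1, 2 and 3 were high and controls 5 and 6 lay within the range of the other groups, so groups overlapped. The log2 difference from control was -0.83 (SE 0.29) at high intensity and -0.74 (SE 0.30) on the static array, with edgeR adjusted p of 0.148 and 0.286.

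Cdh9 was at 11.8, 4.91, 16.2, 11.7 and 10.4 CPM in the controls, 6.64, 8.24, 8.86, 7.59 and 8.84 CPM at low intensity and 9.08, 12.2, 2.45 and 10.2 CPM at high intensity, without separation of groups. On the arrays it was at 10.9, 15.5 and 7.77 CPM on the static array and 7.44, 4.88, 5.96 and 5.01 CPM on the actuated array. Every actuated library lay below every static one, by a narrow margin between actuated replicate 1 and static replicate 4. The log2 difference, -0.97 (SE 0.40, unadjusted p = 0.0237, edgeR adjusted p = 1), was the only one of the 29 with an unadjusted p under 0.05 in that comparison.

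Cdh10, the neighbour of Cdh9 in the GRCm38.p6 annotation, was at 38.2, 21.4, 36.9, 41.2 and 55.4 CPM in the controls, 39.0, 27.0, 39.2, 36.7 and 18.7 CPM at low intensity and 32.8, 30.0, 22.9 and 43.0 CPM at high intensity. Its array values were 40.0, 36.8 and 24.2 CPM on the static array and 44.6, 36.8, 34.0 and 28.9 CPM on the actuated array, and no groups compared were separated. Between the actuated and the static array the log2 difference was 0.10 (interval -0.44 to 0.64). Cdh20, a cadherin of motor pool subsets, was at 7.76, 4.21, 9.998, 13.1 and 6.09 CPM in the controls, 17.4, 5.24, 10.2, 6.95 and 2.72 CPM at low intensity and 6.81, 9.32, 4.91 and 7.16 CPM at high intensity. It was at 9.72, 8.78 and 8.01 CPM on the static array and 8.48, 8.07, 7.17 and 9.65 CPM on the actuated array, where the libraries lay close together, while low intensity ran from the lowest to the highest value of all.

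Cdh11, a cadherin of mesenchyme as well as of neural cells, was at 116, 91.8, 143, 109 and 93.6 CPM in the controls, 93.8, 152, 102, 106 and 102 CPM at low intensity and 149, 161, 86.7 and 105 CPM at high intensity. Array values were 94.5, 80.6 and 114 CPM on the static array and 101, 111, 93.1 and 87.3 CPM on the actuated array. The highest were high-intensity replicates 1 and 2, low-intensity replicate 2 and control replicate 3. The summed CPM of the fibroblast list (7 genes, Col1a1 among them) was 348 to 895 in the controls, 234 to 2567 at low intensity, 902 to 2389.6 at high intensity, 154 to 769.9 on the static and 47.7 to 583 on the actuated array. The lowest high-intensity sum lay just above the highest control sum, while Col1a1 by itself overlapped, at 119.98 to 423 CPM in the controls and 343 to 1055 CPM at high intensity. All 7 log2 differences were above 0 at high intensity, 4 of them at an unadjusted p under 0.05, and edgeR called none. The Cdh11 difference was 0.18 (interval -0.17 to 0.53); the part of fibroblast-like cells in it, and in the Cdh1 and Pcdh18 values at high intensity, was not tested.

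Cdh5 (VE-cadherin, of endothelium) was at 2.88, 6.66, 0, 5.61 and 8.98 CPM in the controls, 6.92, 0.749, 15.3, 6.32 and 0 CPM at low intensity and 13.9, 2.84, 17.2 and 10.7 CPM at high intensity. Array libraries gave 0.452, 1.71 and 2.71 CPM on the static array and 3.13, 5.82, 4.97 and 1.83 CPM on the actuated array. It was scattered in every group, with the largest pooled SD of the 29, 1.20 on the log2 scale. The log2 difference of the actuated from the static array was 1.27 (SE 0.95, edgeR adjusted p = 1). The endothelial list summed to 3.08 to 21.03 CPM in the controls and 4.68 to 20.9 CPM at high intensity, which overlapped. Its member Cldn5 was listed at 0 in every control. The remaining type II cadherins, Cdh12, Cdh18, Cdh19, Cdh22 and Cdh24, had log2 differences from -0.30 to 0.37 at high intensity against control.

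Cdh13 (T-cadherin), tethered to the membrane without a cytoplasmic tail, was at 108, 106, 120.0, 131 and 142 CPM in the controls, 109, 120.2, 149, 109 and 98.0 CPM at low intensity and 95.1, 115, 95.7 and 126 CPM at high intensity. It was at 124, 128 and 102 CPM on the static array and 127, 124, 115 and 117 CPM on the actuated array. All ranges overlapped, and its log2 difference of high intensity from control was -0.17 (interval -0.43 to 0.09). The tip link genes, known from the mechanosensory bundle of hair cells, were at low levels: Pcdh15 at 8.41 to 38.4 CPM and Cdh23 at 0 to 8.69 CPM in the controls. Their log2 differences between the actuated and the static array were 0.11 (interval -0.50 to 0.73) and 0.34 (interval -1.10 to 1.78), and with all 26 libraries both were below 0, at -0.47 and -0.45. Pcdh20, at 2.80 to 14.6 CPM in the controls, had a log2 difference of -0.75 (interval -1.53 to 0.04) at high intensity.

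The 4 genes that did not pass the low-count filter held at most 20 counts in any library used. Cdh16 (of kidney) was at 0 to 1.16 CPM in the controls, Cdh17 (of intestine) at 0 to 2.01 CPM, and Pcdh12 (of endothelium) at 0 to 2.88 CPM. Cdh26 was at 0 in the controls and reached 1.90 CPM at most in a library used.

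Pcdh10 was the delta-2 protocadherin with the clearest difference. It was at 314, 382, 370.3, 333 and 348 CPM in the controls, 264, 242, 292, 317 and 303 CPM at low intensity and 287, 235, 212 and 311 CPM at high intensity. On the arrays it was at 353, 368 and 301 CPM on the static array and 343, 283, 359 and 323 CPM on the actuated array. Every high-intensity library lay below every control, the highest of them only just; low intensity overlapped the controls through replicate 4, and the static array overlapped them too. The log2 difference from control was -0.42 (SE 0.12) at high intensity and -0.36 (SE 0.10) for the mean of both intensity groups, with edgeR adjusted p of 0.0895 and 0.0535, neither called, while DESeq2's Wald test called both. edgeR called Pcdh10 in both without high-intensity replicate 6, and in the mean also without low-intensity replicate 3 or 4. Static array and control differed by -0.04 on the log2 scale (interval -0.29 to 0.22).

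**Figure D3:**
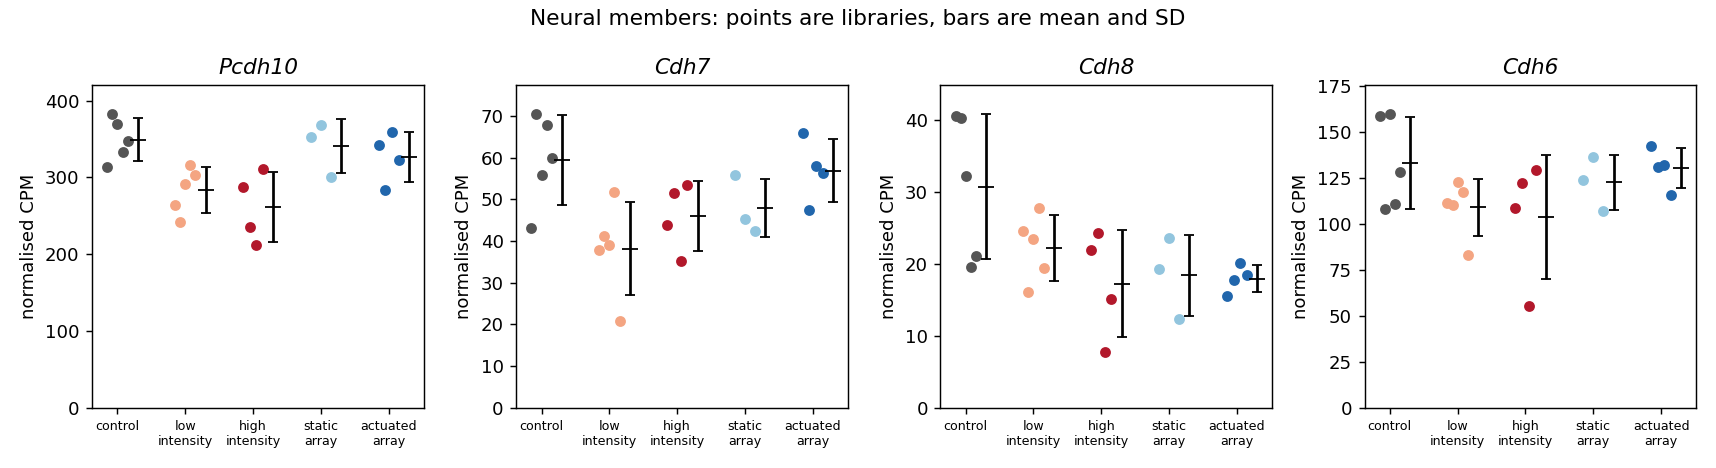
Normalised CPM of Pcdh10, Cdh7, Cdh8 and Cdh6 in the 21 libraries used, 1 point a library, with the mean and SD of each group. Pcdh10 at high intensity (212 to 311) lies below the controls (314 to 382), and the other 3 genes overlap between groups.

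Pcdh18 was the delta-2 member with the opposite sign. It was at 15.2, 11.9, 13.8, 4.68 and 17.7 CPM in the controls, 9.96, 15.4, 10.2, 21.5 and 8.16 CPM at low intensity and 18.9, 25.5, 29.02 and 18.2 CPM at high intensity. On the arrays it was at 13.3, 16.7 and 15.4 CPM on the static array and 17.4, 16.6, 8.28 and 16.2 CPM on the actuated array. All 4 high-intensity libraries exceeded the 5 controls, but low-intensity replicate 4 reached their range. The log2 difference was 0.83 (SE 0.32, edgeR adjusted p = 0.194) against control and 0.84 (SE 0.32, edgeR adjusted p = 0.558) against low intensity. Pcdh17, of the same group, was at 227, 236, 201, 269 and 213 CPM in the controls, 209, 167, 213, 243 and 179 CPM at low intensity and 217, 177, 135 and 236 CPM at high intensity. Its array values were 251, 236 and 176 CPM on the static array and 225, 224, 216 and 196 CPM on the actuated array, with high-intensity replicate 3 the lowest and all groups compared overlapping. Pcdh8 and Pcdh19, the remaining delta-2 members, had log2 differences of -0.25 and -0.02 at high intensity against control.

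Of the delta-1 protocadherins, Pcdh9 was at 212, 165, 193, 182 and 181 CPM in the controls, 184, 180.2, 195, 188 and 177 CPM at low intensity and 219, 158, 149.6 and 178 CPM at high intensity. It was at 206, 182 and 184 CPM on the static array and 192, 187, 203 and 222 CPM on the actuated array, and, with a pooled SD of 0.141 on the log2 scale, was next to Cdh2 in steadiness. Pcdh7 was at 279.8, 274, 223, 251 and 257 CPM in the controls, 169, 239, 229, 260.5 and 207 CPM at low intensity and 229, 266, 167 and 282 CPM at high intensity. Its values were 235, 203 and 200.1 CPM on the static array and 226, 221, 213 and 215 CPM on the actuated array, the low-intensity replicate 1 and high-intensity replicate 3 being lowest. Pcdh1 was at 81.4, 90.8, 49.6, 80.9 and 84.0 CPM in the controls, 93.2, 61.4, 74.6, 68.3 and 86.4 CPM at low intensity and 59.0, 41.3, 58.9 and 83.2 CPM at high intensity. It was at 68.9, 63.3 and 60.0 CPM on the static array and 61.9, 68.0, 66.3 and 73.3 CPM on the actuated array. Control replicate 3 stood apart below the other controls, and all groups compared overlapped. None of these 3 genes was called, and their log2 differences at high intensity against control were -0.08 (interval -0.30 to 0.14), -0.12 (-0.39 to 0.14) and -0.35 (-0.70 to 0.01).

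**Figure D4:**
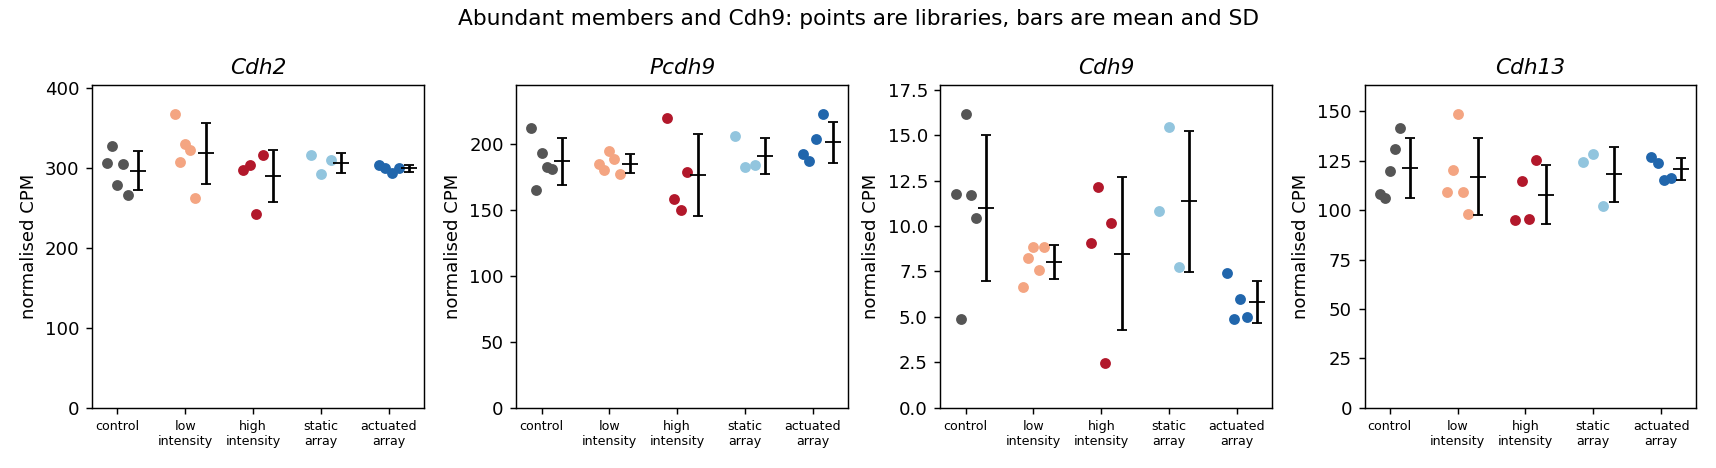
Normalised CPM of Cdh2, Pcdh9, Cdh9 and Cdh13 in the 21 libraries used, 1 point a library, with the mean and SD of each group. Cdh2, Pcdh9 and Cdh13 overlap across groups, and the actuated points of Cdh9 (4.88 to 7.44) lie below the static ones (7.77 to 15.5).

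High intensity against control called 1 of the 29 tested members, Cdh1, beside 0.462% of all genes tested (68 genes, 45 higher and 23 lower) by edgeR's quasi-likelihood test. At an unadjusted p under 0.05 it had 5 members (Cdh1, Cdh3 and Pcdh18 higher, Pcdh10 and Cdh8 lower), a share beside 15.9% of all genes. The 2 members higher without overlap, Cdh1 and Pcdh18, and the 1 lower, Pcdh10, stand beside 3.56% of all genes with no overlap in either direction. Of the 29, 8 had a log2 difference above 0 (all genes 50.3%), and the median of the 29 was -0.13, beside a median of 0.0033 over all genes. Members moved together within libraries. High-intensity replicate 3 was the lowest of its group for Cdh2, Cdh6, Cdh7, Cdh8, Cdh9, Cdh10, Pcdh7, Pcdh9, Pcdh10, Pcdh17 and Pcdh19, among others. It was the highest for Cdh5, Cdh23, Cdh24 and Pcdh18. The part of that library in the direction count was not tested. By class, 2 of 4 type I, 3 of 13 type II, 2 of 2 tip link, 0 of 3 delta-1 and 1 of 5 delta-2 members were above 0. Cdh13 and Pcdh20 were below 0. In the same comparison 5 of 5 genes of the neuron list had log2 differences below 0, 2 of them at an unadjusted p under 0.05. All 6 motor neuron genes tested were below 0 too, and edgeR called none of either list. The neuron list summed to 4627 to 6675 CPM at high intensity and 6593 to 7413 CPM in the controls, which overlapped. The part of neurons in the member values was not tested.

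Low intensity against control called 0 of 29 members by edgeR's quasi-likelihood test (all genes, 0.597%, 88 genes), 3 at an unadjusted p under 0.05 (Cdh1 higher, Cdh7 and Pcdh10 lower; all genes 15.2%) and 1 by DESeq2 (Cdh7). No member was separated from the controls (all genes 2.25%), and 11 had a log2 difference above 0 (all genes 49.1%). The mean of both intensity groups called Cdh1 alone (all genes 1.66%, 244 genes), with 5 members at an unadjusted p under 0.05 (all genes 17.9%); DESeq2 called Cdh1 and Pcdh10. In that comparison 9 members had a log2 difference above 0 (all genes 48.9%), and the median member log2 difference was -0.11, beside -0.01 over all genes. Of the 7 genes of the progenitor or radial glia list, edgeR called 2 at low intensity: Nes rose by 1.43 (SE 0.33, adjusted p = 0.0443) and Vim by 1.01 (SE 0.22, adjusted p = 0.0352) on the log2 scale. The list did not move as one, with 4 of 7 log2 differences above 0 and Fabp7 at -0.33 (edgeR adjusted p = 0.258). The part of such cells in the member values was not tested.

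High against low intensity called 0 of 29 by edgeR (all genes 0%), with 1 at an unadjusted p under 0.05, Pcdh18 (all genes 7.68%), and 0 by DESeq2; no member was separated (all genes 2.63%). With 13 members above 0 (all genes 51.5%), the median member difference was -0.03 on the log2 scale, beside 0.01 over all genes. Standard errors of the 29 members ran from 0.102 to 0.902, the largest being those of members of low level.

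Actuation of the array called 0 of 29 members and 0 of 14730 genes by edgeR's quasi-likelihood test (0%), and 0 members by DESeq2, which called 5 genes in all. At an unadjusted p under 0.05 it had 1 member, Cdh9 (all genes 0.380%), which was also the 1 separated (all genes 4.33% without overlap in either direction). Of the 29, 17 had a log2 difference above 0 (all genes 49.8%), and the median was 0.04, beside -0.00042 over all genes. The abundant members were bounded closely: with 2 SE either way, Cdh2 lay within -0.26 to 0.20, Pcdh10 within -0.32 to 0.20 and Pcdh9 within -0.17 to 0.32. A p that misses the threshold does not show that the arrays were alike for the others.

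The static array against control called 0 of 29 by edgeR (all genes 0.713%, 105 genes), with 2 at an unadjusted p under 0.05 (Cdh1 higher, Cdh8 lower; all genes 12.6%) and 1 by DESeq2 (Cdh1). Cdh1 was the 1 member separated (all genes 8.14% without overlap in either direction), with a log2 difference of 2.46 (SE 0.68, edgeR adjusted p = 0.0911). Above 0 were 15 of the 29 log2 differences (all genes 49.7%). Array and control libraries differ in depth, as given above, and the part of depth was not tested; the control libraries are shared by these comparisons, so the Cdh1 values are not independent of each other. Marker lists differed there too. Of the 6 motor neuron genes tested, edgeR called Slc5a7, a choline transporter, which fell by 1.88 on the log2 scale (adjusted p = 0.00392), and 5 of 6 log2 differences were below 0. All 5 astrocyte and all 5 oligodendrocyte lineage genes had log2 differences above 0, with 3 and 4 of them at an unadjusted p under 0.05 and none called by edgeR. Sox10, for example, was at 5.18 to 12.8 CPM in the controls and 25.9 to 38.95 CPM on the static array. The part of these cells in the member values was not tested.

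**Figure D5:**
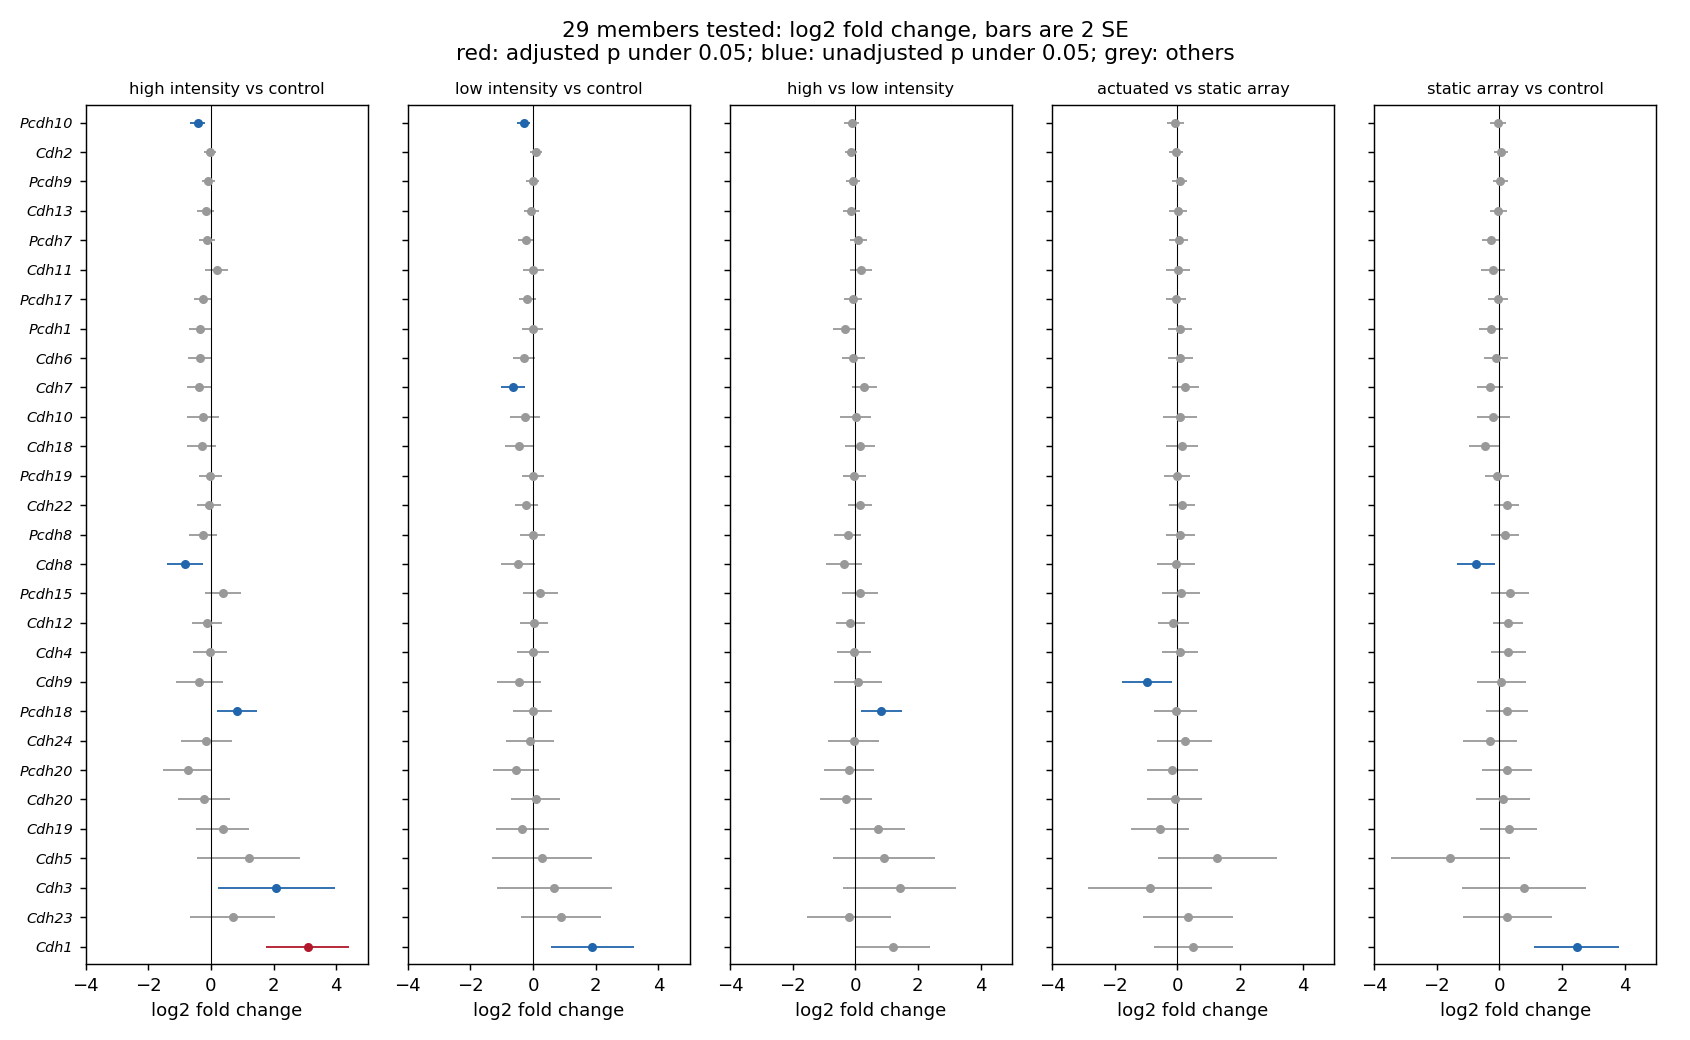
Log2 fold change of the 29 tested members (rows, by level in the controls) in 5 comparisons, with bars of 2 SE; red marks an adjusted p under 0.05, blue an unadjusted p under 0.05, grey the others. Cdh1 at high intensity (3.09) is the single red point, and the bars widen toward the members of low level at the foot.

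The partner list held 36 genes that work with cadherins, of which 34 were tested, among them catenins and adaptors, cadherin repressors, WAVE complex genes and other members of the superfamily. edgeR's quasi-likelihood test called 0 of 34 in every comparison, and DESeq2 called 2 at high intensity, 2 at low intensity, 3 for their mean, 4 on the static array and 0 in the other 2 comparisons. At an unadjusted p under 0.05 there were 10 of 34 at high intensity (6 higher; all genes 15.9%), 13 at low intensity (5 higher; 15.2%) and 12 for their mean (4 higher; 17.9%). There were 3 for high against low intensity (2 higher; all genes 7.68%), 0 for actuation (0.380%) and 6 on the static array (0 higher; 12.6%). The smallest p at high intensity was that of Ctnna2, the neuronal alpha-catenin, at -0.45 (SE 0.12, edgeR adjusted p = 0.0837), then Clstn1, a calsyntenin of axonal transport, at -0.34 on the log2 scale. At low intensity the smallest were Celsr3, a planar polarity cadherin of axon guidance, at -0.66 (edgeR adjusted p = 0.0590) and Vcl (vinculin, which joins catenins to actin) at 0.65 (edgeR adjusted p = 0.0910). For the mean of both they were Wasf1 of the WAVE complex at -0.39 (edgeR adjusted p = 0.0725) and Vcl at 0.56; between high and low intensity they were Dchs1 at 0.38 and Clstn1 at -0.24. On the static array they were Celsr3 at -0.71 and Fat4 at -0.63 (edgeR adjusted p = 0.0764 and 0.0949).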

How the data were processed

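RNA of mouse motor neuron spheroids was sequenced in 26 libraries of 5 groups, made with a low-input total RNA kit and read as pairs of 50 bases, per the labels' protocols. Per gene and library, the authors deposited estimated counts, rounded and unscaled, and separately TPM values. BWA 0.7.12-r1039, bedtools 2.25.0, STAR and Salmon, and the builds mm10, hg19 and GRCm39, are named in the submitters' processing notes with no role. Whether counting used the strand is not given in the sources used here. Biotypes were taken from the counts table, since those of the TPM table matched in 25.3% of genes.

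Counts of the 21 libraries with at least 1000000 protein-coding counts (a minimum taken from an earlier analysis of these data) were fitted in R 4.3.3 with edgeR 4.0.16: TMM scaling, filterByExpr, 1 coefficient per group, the quasi-likelihood F-test and Benjamini-Hochberg adjustment over all genes. The common dispersion was 0.0923, against 0.251 with all 26 libraries. The 5 libraries left out held 1536 to 1457250 counts (rRNA took 75.7% in control replicate 4, the largest). The script was tested on simulated data, with changes placed only in genes above the median level. That test did not cover changes in sparser genes. DESeq2 1.42.0 (Wald test), its size factors, no low-count filter, only the groups compared, a replicate block and leaving out each library were alternatives. Intervals are 2 SE either way. Members, gene lists and tests were chosen with earlier results of these data known.

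Values per library are given for the 8 members highest in the controls, those called, the 2 of smallest p in each comparison and type II cadherins of motor pools; others are given by range. Promoter sequences come from RefSeq (GRCm38.p6). No molecular identifiers are mentioned, so intervals cover counting error and the spread between libraries only.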

Additional observations from a re-analysis of the deposited data

Results flagged for a closer look

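Within groups of 4 or 5 libraries, 80 groups were tested for a library apart from the rest, and 3 had one; chance alone marks about 1 in 20 groups. Cdh11 was at 152 CPM in low-intensity replicate 2, beside 106 CPM in the next library of that group. The same library had the highest summed fibroblast TPM of those used, 681, and the part of that in the Cdh11 value was not tested. Pcdh1 was at 49.6 CPM in control replicate 3, with 80.9 CPM in the next lowest control. Pcdh18 was at 8.28 CPM in actuated array replicate 3, with 16.2 CPM in the next lowest of that group.

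In the 5 libraries that were not used, 165 values of the 33 genes were looked at, each as CPM. Of these, 7 are listed, those whose lower limit of Poisson counting error lay above every library used. Other values were higher too but with that limit below, such as Cdh26 in static array replicate 3 at 5.15, against 1.90 in the highest library used. CPM of the unused libraries came from TMM scaling of all libraries together, and CPM of the used ones from scaling without them, so the pairs are approximate. Cdh4 (R-cadherin) was at 82.6 in control replicate 4, against 38.1 in the highest library used. Cdh12 (a type II cadherin) was at 124 in high-intensity replicate 4, against 37.9. Static array replicate 3 held 4 of the 7, namely Cdh17 (LI-cadherin of intestine) at 25.7 against 4.05, Cdh23 at 24.0 against 12.01, Pcdh12 (an endothelial protocadherin) at 29.2 against 3.27, and Pcdh15 at 127 against 53.1. High-intensity replicate 5 had Pcdh12 at 24.6. In static array replicate 3 the endothelial list summed to 44.7 TPM and the neural crest list to 19.9 TPM, above every library used, and their part in these values was not tested. These 7 values rest on 10 to 74 counts each.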

How the results depend on the processing

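Each comparison was refitted with 6 other settings and without each of the 21 libraries. In the order high intensity, low intensity and their mean against control, high against low intensity, actuated against static array, and static array against control, the main counts of genes called were 68, 88, 244, 0, 0 and 105, and of members 1, 0, 1, 0, 0 and 0. With all 26 libraries the genes called were 6, 4, 4, 0, 0 and 2, with 0 members in all. Fitting only the groups compared gave 17, 21, 0, 0, 0 and 42 genes and 0 members. DESeq2's Wald test gave 467, 471, 768, 49, 5 and 381 genes and 2, 1, 2, 0, 0 and 1 members. Without the low-count filter there were 700, 660, 873, 126, 40 and 459 genes and 2 (Cdh1, Cdh3), 1 (Cdh7), 2 (Cdh1, Pcdh10), 0, 0 and 1 (Cdh1) members. DESeq2's size factors in edgeR gave 74, 89, 250, 0, 0 and 117 genes and the same member counts as the main setting.

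Replicate numbers showed no sign of pairing the samples, and how they were assigned is not stated. Deviations of same-numbered libraries correlated at -0.225 to 0.182 over 31 pairs (median -0.0019). Those of differently numbered libraries correlated at -0.227 to 0.243 over 144 pairs (median 0.0040). With the number as a replicate block, the genes called were 2, 8, 37, 0, 0 and 36 and the members 0 in every comparison.

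Leaving out 1 library at a time gave 0 to 397, 2 to 264, 49 to 517, 0 to 3, 0 to 0 and 18 to 141 genes called, and 0 to 2, 0 to 0, 0 to 2, 0 to 0, 0 to 0 and 0 to 0 members; the cause was not tested. With all 26 libraries 28 of the 174 log2 differences of members changed sign, 27 of them smaller than their SE in the 21 libraries. Between the arrays Cdh5 went to -0.12, Pcdh15 from 0.11 to -0.47 and Cdh23 from 0.34 to -0.45, and Cdh12 at high intensity went from -0.13 to 0.32. Directions also reversed, without static array replicate 4, for Cdh3 between the arrays (0.85, range -1.39 to 0.85 over libraries left out) and on the static array against control (-0.93, range -0.93 to 1.52). Log2 differences of 40 combinations of gene and comparison were followed through every setting. Under other settings 224 kept direction and side of the threshold, 8 crossed to called, 5 lost a call and 1 reversed. Only Cdh1 at high intensity and in the mean of both groups had a call to lose. It kept that call in 3 of 5 and 3 of 6 other settings. With libraries left out, 811 stayed the same, 4 crossed to called, 23 lost a call and 2 reversed. Members of low CPM had the largest standard errors; the part of depth was not tested.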

Other observations

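Members differed widely in how far libraries of 1 group lay apart. The pooled SD within groups, on log2 of CPM plus 1, was 0.131 at a mean of 302 CPM for Cdh2, 0.141 at a mean of 188 CPM for Pcdh9 and 0.168 at a mean of 311 CPM for Pcdh10. The added 1 narrows the spread of values near or below 1 CPM, such as those of Cdh1 in the controls. The pooled SD was 1.20 at a mean of 5.65 CPM for Cdh5, 1.18 at a mean of 5.21 CPM for Cdh3, 0.876 at a mean of 5.39 CPM for Cdh23 and 0.684 at a mean of 5.05 CPM for Cdh1. The steady genes were abundant and the scattered ones sparse; the part of counting depth in this order was not tested.

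Several members are next to each other among protein-coding genes of the GRCm38.p6 annotation, and neighbours differed in level in the controls. Cdh6, Cdh9, Cdh10 and Cdh12 lie in a row with mean levels of 13.8, 2.79, 10.999 and 3.84 TPM. Cdh8, Cdh11 and Cdh5 follow each other at 6.61, 17.1 and 0.953 TPM. Pcdh20 at 2.07 TPM is next to Pcdh9 at 46.9 TPM, and Cdh7 at 12.2 TPM is next to Cdh19 at 1.36 TPM.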
